A study of Mus musculus with 4 samples.

Results

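The 36 genes described here are targets and regulators of the sterol regulatory element-binding proteins (SREBPs): the enzymes of cholesterol and fatty acid synthesis, the SREBP genes themselves, and the proteins that control them. They were chosen by name, from a list of pathway genes, and all 36 were found among the 26793 gene names of the array, on 70 probes. They comprised 7 genes of the mevalonate step, 11 of the sterol step, 6 of sterol control and transport (uptake and control in the plots), and 12 of fatty acid synthesis. Each gene was represented by its brightest probe, and all 36 were well above background on all 4 arrays.

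RNA came from IMS/N cells, hepatic stellate cells of normal 129/Sv mice that had been immortalized with SV40. The control cells had neither treatment, the PA cells received palmitic acid (PA, a saturated fatty acid), the ADSC medium cells received medium from a culture of adipose tissue-derived stem cells (ADSCs), and the last culture received both. The ADSCs came from inguinal fat of male C57BL/6J mice aged 8 to 10 weeks. The dose and duration of PA, its carrier, and whether the cultures without ADSC medium got any other conditioned or fresh medium were not stated in the sources at hand. Each of the 4 conditions was measured on 1 one-colour array, and all used the same cell line. No test between conditions was run, since the 1 residual degree of freedom of an additive fit is the difference between the PA effects without and with medium, and "higher" and "lower" describe a pair of arrays.

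SREBPs are made as membrane proteins of the endoplasmic reticulum. When sterols are scarce, SCAP escorts them to the Golgi, where proteases release the part that enters the nucleus and raises transcription of the synthesis genes. When sterols are plentiful, INSIG proteins hold SCAP back, and unsaturated fatty acids restrain the pathway as well, most of all SREBP-1. SREBP-2 mainly drives cholesterol genes and SREBP-1c fatty acid genes. Hepatic stellate cells store vitamin A in lipid droplets when quiescent and make collagen when activated.

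SREBPs bind short sterol regulatory elements next to sites for the partner factors NF-Y and Sp1, so the promoters of 5 members are shown for the letters such factors are known to read. The stretches are the 250 bases before the RefSeq start site (GRCm38.p6), written from 5′ to 3′ on the gene's strand. Capitals mark CCAAT, the core of the NF-Y site, or its reverse complement ATTGG, and the element core TCACNCCAC in Hmgcs1. The 5 were picked after their values were seen: Mvk, Idi1 and Hmgcs1 for their place in the mevalonate step, Fasn for fatty acid synthesis, and Fads2 because it did not share the pattern of the others. They lie at chr13:119690101-119690350 (plus strand, Hmgcs1), chr5:114444019-114444268 (plus strand, Mvk), chr13:8885356-8885605 (plus strand, Idi1), chr11:120824548-120824797 (minus strand, Fasn) and chr19:10101504-10101753 (minus strand, Fads2).
Hmgcs1: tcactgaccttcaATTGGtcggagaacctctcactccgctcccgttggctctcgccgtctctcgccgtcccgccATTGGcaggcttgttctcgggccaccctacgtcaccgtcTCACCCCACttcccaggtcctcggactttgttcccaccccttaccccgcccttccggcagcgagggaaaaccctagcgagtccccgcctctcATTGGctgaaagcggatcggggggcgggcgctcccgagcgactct
Mvk: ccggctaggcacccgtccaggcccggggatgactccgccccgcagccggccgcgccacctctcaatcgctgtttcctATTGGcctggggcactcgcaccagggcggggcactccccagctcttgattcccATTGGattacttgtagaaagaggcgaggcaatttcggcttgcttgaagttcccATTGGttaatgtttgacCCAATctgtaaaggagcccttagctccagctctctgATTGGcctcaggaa
Idi1: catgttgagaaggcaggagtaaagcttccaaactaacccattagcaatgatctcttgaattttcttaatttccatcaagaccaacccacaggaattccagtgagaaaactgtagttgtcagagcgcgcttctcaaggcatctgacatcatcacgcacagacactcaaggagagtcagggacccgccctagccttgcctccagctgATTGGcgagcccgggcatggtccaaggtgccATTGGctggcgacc
Fasn: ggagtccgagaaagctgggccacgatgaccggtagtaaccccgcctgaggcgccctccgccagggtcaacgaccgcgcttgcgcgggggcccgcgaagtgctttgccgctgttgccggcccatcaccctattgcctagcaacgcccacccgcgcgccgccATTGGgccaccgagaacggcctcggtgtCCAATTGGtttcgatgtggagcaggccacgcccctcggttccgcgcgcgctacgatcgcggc
Fads2: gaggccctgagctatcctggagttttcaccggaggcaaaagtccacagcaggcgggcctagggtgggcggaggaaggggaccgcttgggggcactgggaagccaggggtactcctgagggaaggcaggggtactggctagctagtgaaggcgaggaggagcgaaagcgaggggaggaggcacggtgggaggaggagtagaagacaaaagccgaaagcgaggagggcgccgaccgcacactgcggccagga

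The Mvk stretch held 5 copies of CCAAT on either strand, those of Hmgcs1 and Fasn 3 each, that of Idi1 2, and that of Fads2 none. A pair of the Fasn copies overlap on opposite strands. Windows of 300 bases, 250 before and 50 after the start, were found for 29 of the 36 members. They were not found for Fdps, Fdft1, Sqle, Stard4, Scd1, Scd2 and Fads1. CCAAT, on either strand, occurred in 24 of the 29 members (82.8%), against 41.1% of all 27025 genes with a window and 42.7% of the 11610 that were well above background on all 4 arrays. At least 2 copies were present in 12 of the 29 members, against 13.3% of all genes and 15.9% of those well above background on all arrays. By step, 9 of 9 sterol genes with a window, 5 of 6 mevalonate genes, 4 of 5 control and transport genes and 6 of 9 fatty acid genes held a copy. Acat2, Scap, Acaca, Elovl6 and Fads2 held none. GGGCGG, the GC box read by Sp1, was also found in 24 of the 29 (82.8%), against 38.2% of all genes but 64.5% of those well above background on all arrays. The E-box CACGTG was found in 6 members (20.7%), against 8.09% of all genes and 11.1% of those well above background on all arrays. TCACNCCAC was found only in Hmgcs1 (3.45% of the 29, against 1.44% and 1.42%). These matches describe letters in a window and do not locate bound sites.

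On each array 67.5% to 70.0% of probes were well above background, and no spot was saturated. Levels are log2 processed intensities after quantile normalization of the 4 arrays, and differences are on the same log2 scale. Probes printed on 10 spots gave the spread of the measurement itself. For a pair of single spots, the SD of the difference was 0.080 at levels of 7 to 9, 0.067 at 9 to 11, 0.060 at 11 to 13 and 0.061 above 13; it leaves out variation between cultures. The PA difference was measured in 2 pairs of cultures, without and with ADSC medium, and the gap between the pairs had an SD of 0.34 over all genes and 0.13 over members; that gap also holds any effect of the medium on the response to PA. Of 12 stellate cell markers, 9 were well above background on all arrays, among them Acta2, Col1a1 and Vim, and Lrat, Reln and Hand2 were not on any. Well above background on all arrays were also 3 of 8 hepatocyte markers (Cyp3a11, Tat and Apoh), 3 of 8 adipocyte markers (Cidec, Lipe and Plin4) and 5 of 8 macrophage markers (Cd68, Csf1r, Lyz2, Marco and Cd14). The hepatocyte genes Alb and Cyp2e1 were not well above background on any array. Nor were the adipocyte genes Adipoq, Plin1 and Lep, and the macrophage genes Adgre1, Clec4f and Ptprc. In RNA of a whole culture, fewer cells of a type and less RNA per cell cannot be told apart.

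PA was compared with control to ask how the synthesis genes stood after a load of saturated fatty acid. The members were lower with PA nearly throughout: 34 of 36 were lower by any amount, against 51.3% of the 18209 genes compared. Their median difference was -0.31, a 1.24-fold lower level, beside -0.01 over all genes. Of the 36, 30 were lower by more than 2 spot SDs, against 19.8% of the 17355 genes well above background on all arrays. The differences were small: 4 members were at least 1.5-fold lower, against 3.27% of all genes, and none was at least 1.5-fold higher, against 2.92%. Those 4 were Mvk, Acat2, Idi1 and Elovl6. The mevalonate step had the lowest median (-0.58), followed by sterol synthesis (-0.39), fatty acid synthesis (-0.26) and the control and transport genes (-0.13). Of the 8 adipocyte markers, 3 were well above background on all arrays. Plin4, a lipid droplet protein, was lower with PA in both pairs (-0.62 and -0.66), Cidec was higher (0.75 and 0.71), and Lipe gave -0.08 and 0.49. Cidec lay at low levels of 3.37 to 4.57, where the spot SD was 0.29, and Lipe at 5.02 to 5.70. On the log2 scale, the summed level of the 8 adipocyte markers was 11.43 in control, 10.83 with PA, 11.62 with ADSC medium and 10.99 with both. The sum was mostly Plin4, and its part in the result was not tested. Of the 9 stellate markers compared, 6 were lower with PA and 3 higher, against 51.3% of all genes lower. They ran from Pdgfrb (-0.93) and Col3a1 (-0.84) to Des (0.88, at low levels). In ADSC medium 4 were lower with PA and 5 higher, against 52.4% of all genes lower. Pdgfrb, Col3a1 and Des gave 0.04, -0.56 and -0.10 there. The part of the stellate markers was not tested either.

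**Figure D1:**
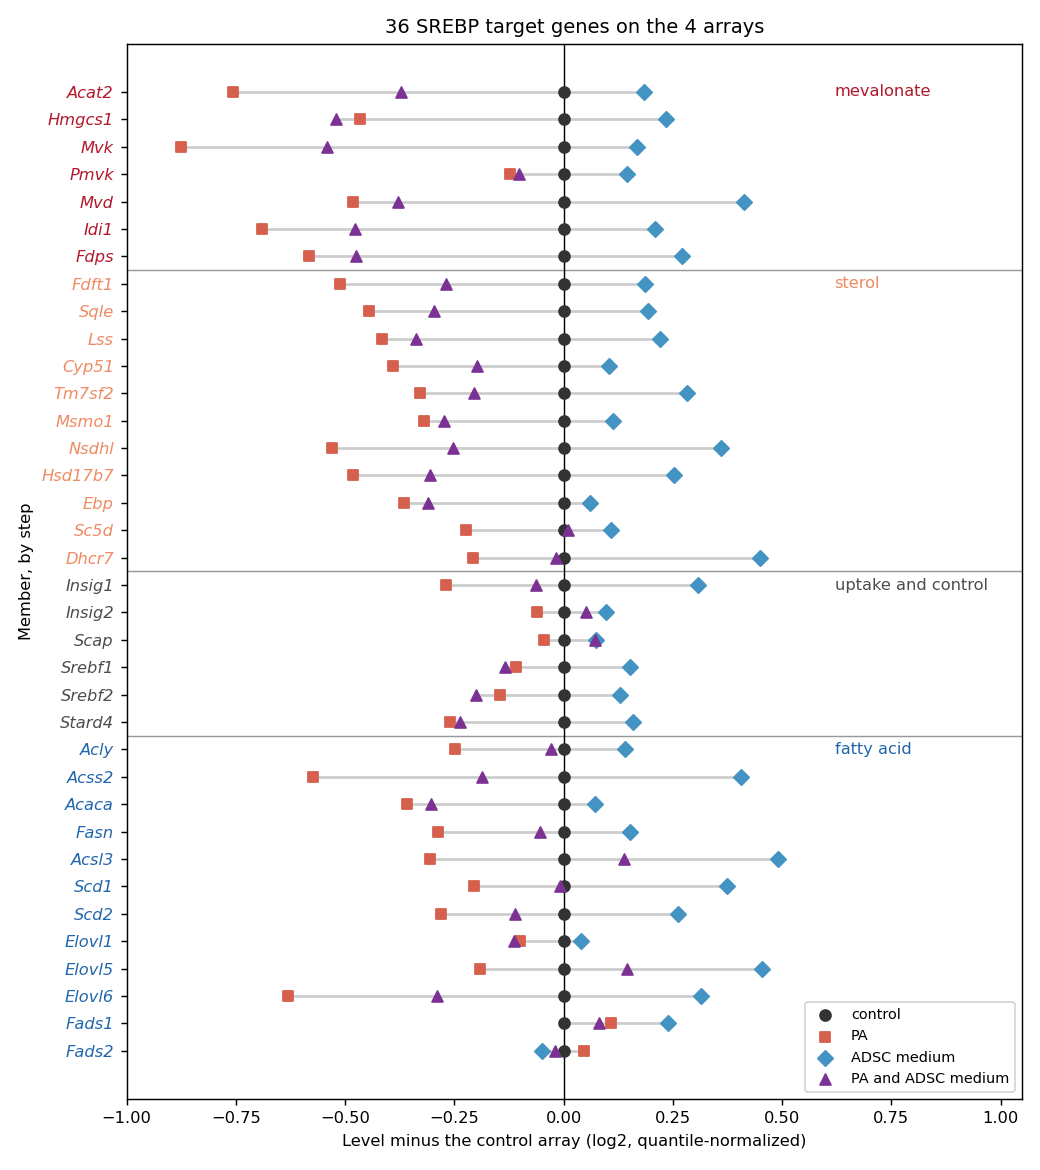
Level of each of the 36 members on each array, minus its level on the control array (x axis, log2, quantile-normalized), with members on the y axis by step; a grey line joins the 4 arrays of a gene, and each symbol is 1 array. For 34 members the PA square lies left of the control line, and for 35 the ADSC medium diamond lies right of it; Fads2 shows neither.

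The same PA contrast was measured on another pair of arrays, both with ADSC medium. There 35 of 36 members were lower with PA, against 52.4% of 18467 genes, with a median of -0.38, beside -0.02 over all genes. At least 1.5-fold lower were 8 members, against 3.14% of all genes, and 32 were lower by more than 2 spot SDs, against 21.9%. The step medians kept their order, at -0.71 for mevalonate, -0.47 for sterol, -0.33 for fatty acid synthesis and -0.31 for control and transport. These 4 arrays form 2 pairs with no array in common. Lower with PA in both pairs were 34 of 36 members, against 34.0% of the 17813 genes compared in both. Mvk, Idi1 and Elovl6 were at least 1.5-fold lower in both, against 163 of the 17813 genes. Across the 36 genes, which are not independent, the PA differences of the pairs had a Pearson r of 0.84 and a Spearman rho of 0.86. Over all genes these were 0.50 and 0.36. Within steps rho was 0.94 for control and transport, 0.81 for fatty acid, 0.61 for sterol and -0.11 for mevalonate genes. The median gap between the pairs was 0.09, beside 0.16 over all genes. The PA difference was larger in size with ADSC medium for 24 of 36 members, against 51.6% of all genes. The difference between the pairs could not be tested with 1 array each.

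**Figure D2:**
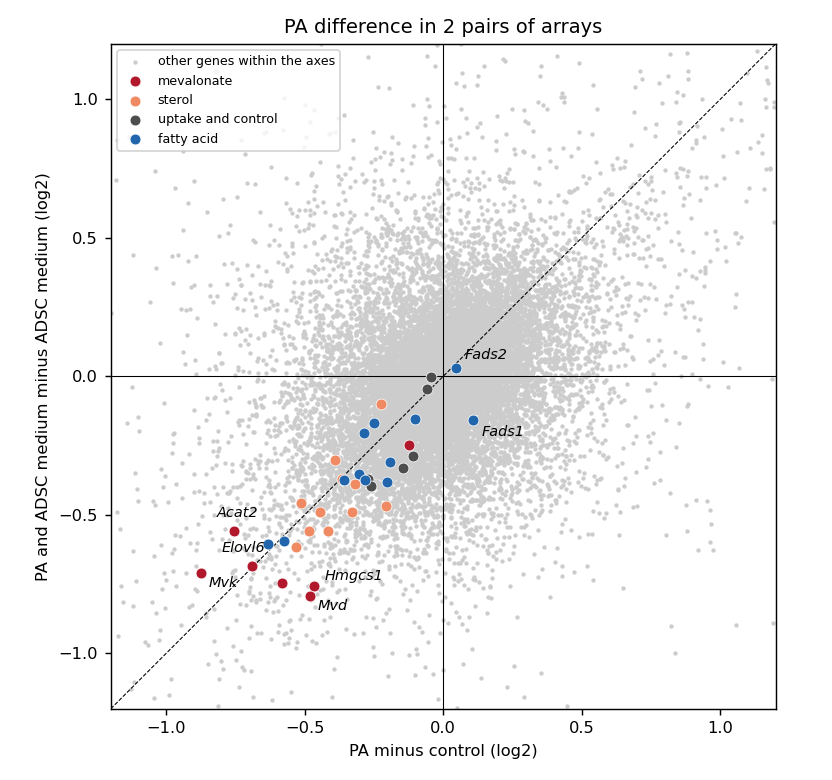
Difference between PA and control (x axis, log2) against the difference between PA and ADSC medium and ADSC medium alone (y axis, log2) for the 36 members, coloured by step, and for other genes within the axes (grey); the dashed line marks equal differences. All 18 mevalonate and sterol genes lie below 0 on both axes, Mvk farthest left at -0.88 and Mvd lowest at -0.79, and Fads2 is the member above 0 on both.

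The mevalonate step turns acetyl-CoA into the isoprenoid building blocks of cholesterol, and all 7 of its genes were lower with PA in both pairs. Mvk encodes mevalonate kinase; its probe lies at chromosome 5, 114902394 to 114902453 (mm9). Its level was 11.16 in control, 10.28 with PA, 11.33 with ADSC medium and 10.62 with both. Both cultures with PA were below both cultures without it. Mvk was 1.83-fold lower with PA (-0.88, spot SD 0.067) and 1.64-fold lower with PA in the presence of ADSC medium (-0.71).

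Acat2 encodes the cytosolic thiolase that joins acetyl-CoA units at the head of the pathway, and its probe lies at chromosome 17, 13136497 to 13136556 (mm9). Its levels were 9.91 in control, 9.16 with PA, 10.10 with ADSC medium and 9.54 with both. Again the cultures with PA were the lower ones, and the differences were -0.76 without and -0.56 with ADSC medium. Idi1, the isomerase of isopentenyl diphosphate, has its probe at chromosome 13, 8891386 to 8891445 (mm9), and measured 13.99 in control, 13.30 with PA, 14.20 with ADSC medium and 13.51 with both. Its PA difference was -0.69 in each pair, so the 4 values of Idi1 were parallel with and without the medium.

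Hmgcs1, the synthase that makes HMG-CoA, stood at 13.55 in control, 13.08 with PA, 13.79 with ADSC medium and 13.03 with both. Its PA difference was -0.47 without and -0.76 with ADSC medium. The culture with both was within 1 spot SD of the culture with PA (-0.05). Its other probes gave -0.68 and -0.62 for PA against control, so the brightest probe showed the smallest PA difference of the 3. Mvd, the decarboxylase of the step, had PA differences of -0.48 and -0.79. Fdps, which makes farnesyl diphosphate, had -0.58 and -0.75. Pmvk, phosphomevalonate kinase, differed least within the step, by -0.12 and -0.25.

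In the sterol step, which runs from farnesyl diphosphate through squalene and lanosterol to cholesterol, all 11 genes were lower with PA in both pairs. Fdft1, squalene synthase and the first enzyme committed to sterols, measured 11.86 in control, 11.35 with PA, 12.05 with ADSC medium and 11.59 with both. Its PA differences were -0.51 and -0.46. Sqle, squalene epoxidase and a rate-setting enzyme, measured 13.75 in control, 13.30 with PA, 13.94 with ADSC medium and 13.45 with both. Its PA differences, -0.45 and -0.49, were near those of Fdft1. For both genes the PA cultures were the 2 lowest.

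Lss closes squalene epoxide into lanosterol. Its brightest probe read 11.29 in control, 10.87 with PA, 11.51 with ADSC medium and 10.95 with both. All 3 Lss probes were lower with PA in both pairs. They parted when the culture with both was set against control: the brightest gave -0.34, another -0.32 and the remaining probe 0.13. For this gene the direction of that comparison therefore depends on the probe.

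The enzymes that trim lanosterol to cholesterol were also lower. Nsdhl, a dehydrogenase of sterol demethylation, had the lowest PA differences of the step, -0.53 and -0.62, and Hsd17b7, its reductase partner, -0.48 and -0.56. Cyp51, lanosterol demethylase, had -0.39 and -0.30, and Ebp, a sterol isomerase, -0.37 and -0.37. Tm7sf2, a sterol reductase, had -0.33 and -0.49. Msmo1, the methylsterol oxidase, had -0.32 and -0.39. On their brightest probes, the genes of the last steps differed less with PA alone. Sc5d, a desaturase, had -0.22 and -0.10, and Dhcr7, a reductase, -0.21 and -0.47. For Sc5d this depends on the probe, as its other probe gave -0.42 and -0.17.

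Among the genes that control the pathway, Insig1, which retains SCAP and is itself an SREBP target, measured 10.03 in control, 9.76 with PA, 10.33 with ADSC medium and 9.96 with both. It was lower with PA in both pairs (-0.27 and -0.37). Insig2, its relative, measured 10.95 in control, 10.89 with PA, 11.05 with ADSC medium and 11.00 with both. On this brightest probe its PA differences of -0.06 and -0.05 were within 1 spot SD of 0. The other Insig2 probe gave -0.18 and -0.01. Scap measured 12.70 in control, 12.65 with PA, 12.77 with ADSC medium and 12.77 with both. Its PA differences were -0.04 and -0.00. The second was the smallest of the members in size with ADSC medium, and the first was level in size with that of Fads2 (0.05).

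Srebf1, which encodes SREBP-1, measured 13.43 in control, 13.32 with PA, 13.58 with ADSC medium and 13.29 with both, with PA differences of -0.11 and -0.29. Which of the Srebf1 transcripts the probe reads was not analysed here. Srebf2, which encodes SREBP-2, measured 14.80 in control, 14.65 with PA, 14.93 with ADSC medium and 14.60 with both, with differences of -0.15 and -0.33. In both genes the culture with both lay within 1 spot SD of the culture with PA (-0.03 and -0.05), and the other 3 Srebf2 probes were higher there than with PA (0.19, 0.06 and 0.23). Stard4, a carrier of cholesterol between membranes, had PA differences of -0.26 and -0.40.

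Fatty acid synthesis genes were lower with PA in 10 of 12 cases without ADSC medium and 11 of 12 with it. Elovl6, which elongates palmitate itself, led the step, at 12.38 in control, 11.75 with PA, 12.69 with ADSC medium and 12.09 with both. It was 1.55-fold lower with PA and 1.52-fold lower in the other pair. Acss2, which makes acetyl-CoA from acetate, measured 8.34 in control, 7.77 with PA, 8.75 with ADSC medium and 8.16 with both, with PA differences of -0.57 and -0.59. Its probes disagreed on the culture with both against PA: the brightest gave 0.39 and another -0.17.

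Acaca, acetyl-CoA carboxylase and the first committed step, measured 9.01 in control, 8.65 with PA, 9.08 with ADSC medium and 8.71 with both, with PA differences of -0.36 and -0.37. Fasn, fatty acid synthase, measured 15.83 in control, 15.54 with PA, 15.98 with ADSC medium and 15.78 with both. Its PA differences of -0.29 and -0.21 were several spot SDs from 0 but well under 1.5-fold. Scd1, a desaturase that makes oleate and palmitoleate from saturated fatty acids, measured 12.01 in control, 11.80 with PA, 12.38 with ADSC medium and 12.00 with both. Its PA differences were -0.20 and -0.38, and those of Scd2, the related desaturase, -0.28 and -0.37.

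Acly, which cuts citrate to acetyl-CoA, had PA differences of -0.25 and -0.17, and Acsl3, which activates fatty acids, -0.31 and -0.35. Elovl5, an elongase of polyunsaturated fatty acids, had -0.19 and -0.31, and Elovl1, an elongase of long saturated chains, -0.10 and -0.15. The exceptions were the desaturases of polyunsaturated fatty acids. Fads1 measured 11.16 in control, 11.27 with PA, 11.40 with ADSC medium and 11.24 with both, so its PA difference was 0.11 without and -0.16 with ADSC medium. Fads2 measured 10.98 in control, 11.03 with PA, 10.93 with ADSC medium and 10.97 with both. Its values lay close together, and each of its PA differences (0.05 and 0.03) was within 1 spot SD of 0.

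Next, the medium was examined in cells without PA, by setting ADSC medium against control. Here the members stood on the other side: 35 of 36 were higher, against 48.1% of 18198 genes, with a median of 0.19, beside -0.01 over all genes. No member was at least 1.5-fold higher, against 2.31% of all genes, and 27 were higher by more than 2 spot SDs, against 12.3%. The step medians lay close together, at 0.25 for fatty acid synthesis, 0.21 for mevalonate, 0.19 for sterol and 0.14 for control and transport. Acsl3 (0.49), Elovl5 (0.45), Dhcr7 (0.45), Mvd (0.41) and Acss2 (0.41) differed most. Fads2 was the exception, at -0.05. Of the 9 stellate markers compared with the medium, 6 were lower and 2 higher, against 51.6% of all genes lower. Acta2 (-1.43), Tagln (-1.10) and Lox (-0.35) were the lowest, and Col3a1 (0.37) and Pdgfrb (0.35) the higher ones. Of the 5 macrophage markers compared, 3 were higher, against 48.1% of all genes, and 2 lower. Cd14 (0.73) and Cd68 (0.47) were among the higher ones, and Lyz2 (-0.37) was the lowest. The summed log2 level of the 8 macrophage markers was 9.75 in control, 9.69 with PA, 10.25 with ADSC medium and 10.43 with both, with 5 of the 8 well above background. That of the 12 stellate markers was 17.42, 17.32, 17.18 and 17.18 in the same order. Their part in the result was not tested.

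On top of PA, the medium was compared by setting the culture with both against the culture with PA, the study's question of restoration by ADSCs. Of the 36 members 30 were higher, against 46.4% of 18751 genes, with a median of 0.16, beside -0.02 over all genes. No member was at least 1.5-fold higher, against 5.25% of all genes, and 20 were higher by more than 2 spot SDs, against 18.7%. Acsl3 (0.44), Acss2 (0.39), Acat2 (0.38), Elovl6 (0.34), Elovl5 (0.34) and Mvk (0.33) were highest. For Mvk this depends on the probe, as its other probe, about as bright, gave 0.08. The 6 that were lower, by at most -0.07, were Fads2, Srebf2, Hmgcs1, Srebf1, Fads1 and Elovl1. With another probe rule, the mean of a gene's detected probes, Hmgcs1 was 0.03, Srebf2 0.11 and Mvk 0.21 in this comparison. Higher with ADSC medium in both pairs were 30 of 36 members, against 28.5% of all genes.

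**Figure D3:**
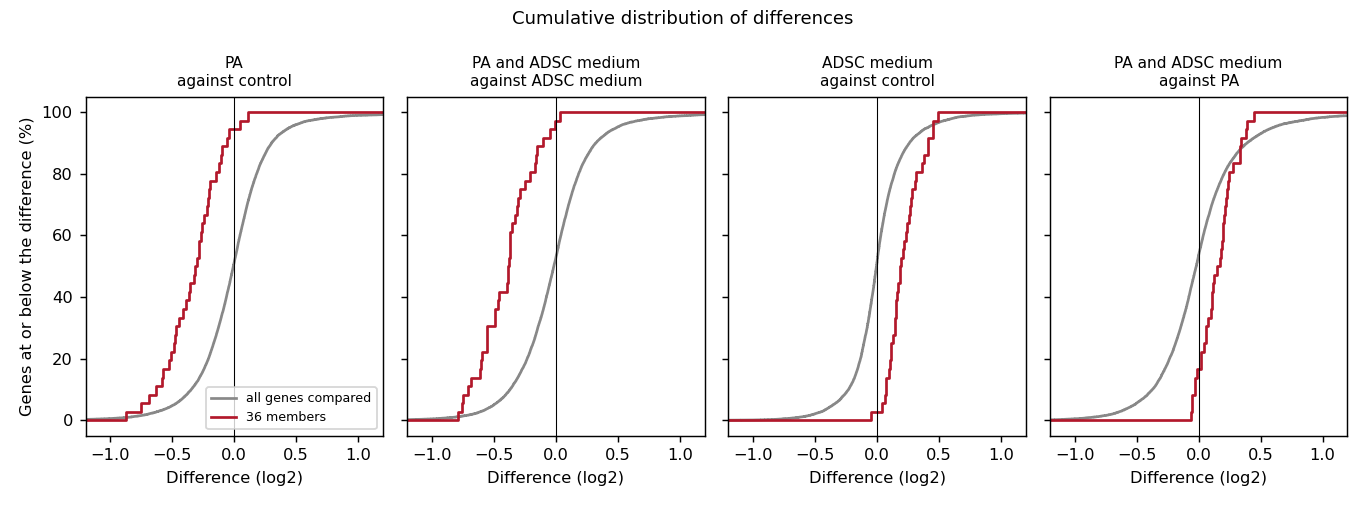
Cumulative share of genes (y axis, %) at or below a difference (x axis, log2) in 4 comparisons, for all genes compared (grey) and the 36 members (red). The red curve lies left of the grey one in both PA comparisons, with medians of -0.31 and -0.38, and right of it over most of its course in both ADSC medium comparisons, with medians of 0.19 and 0.16.

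The culture with both treatments was then set against control. Of the 36 members 30 were lower, against 53.3% of 18252 genes, with a median of -0.20, beside -0.02 over all genes. None was at least 1.5-fold lower, against 3.67% of all genes, and by more than 2 spot SDs 21 were lower, against 22.9%, and 2 higher, against 18.6%. The steps spread apart here. The mevalonate median was -0.48 and the sterol median -0.27, whereas those of control and transport genes (-0.10) and of fatty acid genes (-0.04) were near 0. Mvk (-0.54), Hmgcs1 (-0.52), Idi1 (-0.48) and Fdps (-0.47) were below control by the most. Dhcr7 (-0.02), Scd1 (-0.01), Acly (-0.03) and Fasn (-0.05) were within 1 spot SD of it, and Elovl5 (0.15) and Acsl3 (0.14) were above it.

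After each gene was centred on its mean, the mean over members was 0.08 in control, -0.26 with PA, 0.29 with ADSC medium and -0.11 with both. The order from lowest to highest (PA, both, control, ADSC medium) was noticed in these values and then counted. It was held by 25 of 36 members, against 8.15% of the genes well above background on all arrays. It was held by 6 of 7 mevalonate genes, 10 of 11 sterol genes, 7 of 12 fatty acid genes and 2 of 6 control and transport genes. Over 4 arrays, the members least like the members' mean were Fads2 (r = -0.86), Fads1 (0.46), Scap (0.62) and Insig2 (0.79).

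Because the members were well expressed, they were also set beside other genes of similar level. With PA against control, the 3704 other genes at levels of 9 to 11 had a median of 0.01 and the 7 members there -0.27. At levels of 11 to 13 the medians were -0.00 for 2857 other genes and -0.36 for 14 members, and above 13 they were -0.01 for 1480 other genes and -0.29 for 13 members. With ADSC medium against control the 3 ranges gave 0.17, 0.27 and 0.15 for members and -0.00, -0.01 and -0.01 for others.

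Probes of the same gene gave a further reading of the same RNA. For 21 members 33 further probes were well above background on all arrays. 1 more probe, of Acss2, was not well above background on any array. All 33 had the sign of the brightest probe in both PA comparisons, 30 did in ADSC medium against control, and 23 did in both against PA. The median gap to the brightest probe was 0.08 with PA and 0.08 with ADSC medium.

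**Figure D4:**
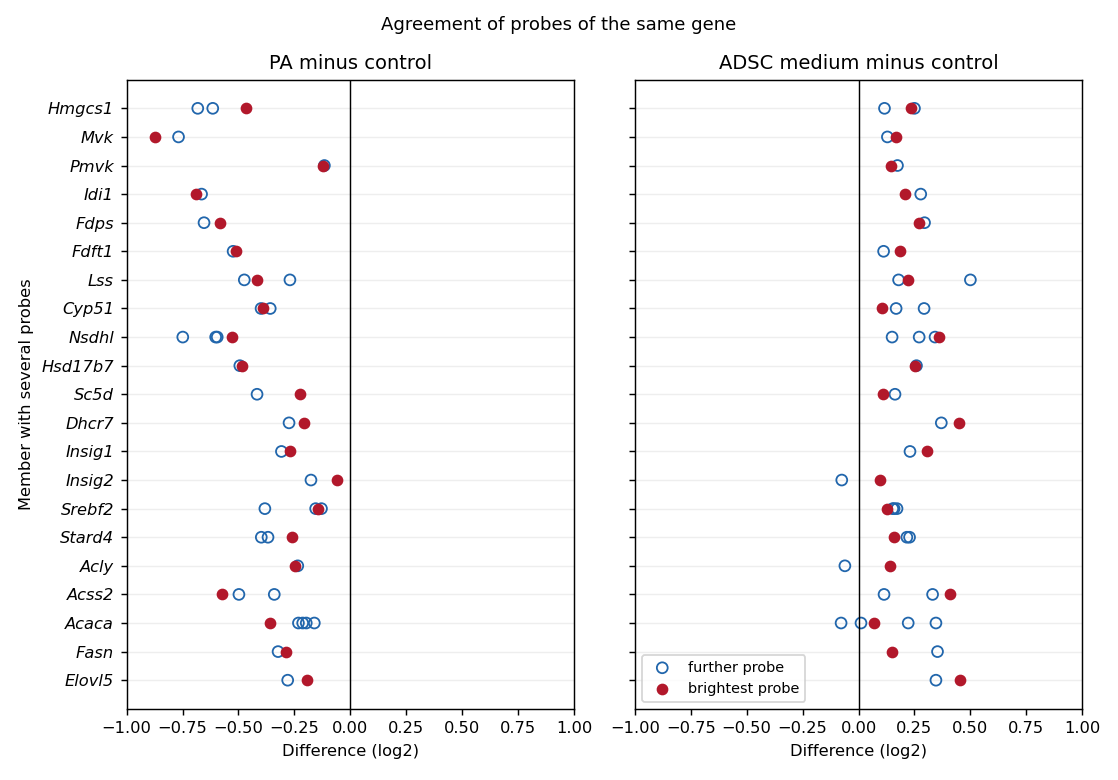
Difference on each probe of the 21 members with several probes (x axis, log2; members on the y axis), for PA minus control (left) and ADSC medium minus control (right); filled points are the brightest probe and open points the further probes. All 33 further probes lie below 0 on the left, and 3 lie below 0 on the right.

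Other genes of the pathway were described by list. The machinery that processes or degrades SREBPs and their partners was divided. Of 14 genes 6 were lower and 8 higher with PA (median 0.02), against 51.3% of all genes lower. With PA in ADSC medium 9 were lower and 5 higher (median -0.05), against 52.4% of all genes lower. The lowest of the list was Rnf145, a ubiquitin ligase of the endoplasmic reticulum linked to SCAP and sterol sensing, which was lower with PA in both pairs (-0.67 and -0.66), and Sec24d, of the coat of vesicles that leave the endoplasmic reticulum, was lower as well (-0.56 and -0.37). Erlin1, which helps degrade sterol-sensing proteins, was at the other end, at 0.31 and 0.29. With ADSC medium the list's median was -0.00.

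The branch that leads from the mevalonate pathway to isoprenoids other than sterols was on the opposite side in the pair without ADSC medium, and less so with it. Of 10 genes compared 9 were higher with PA (median 0.16), against 8840 of all 18209 genes. With PA in ADSC medium 6 of the 10 were (median 0.08), against 8754 of 18467 genes. With PA against control, Coq2, of ubiquinone synthesis, was the highest (0.46) and Fnta, a subunit of protein prenyltransferases, the lowest (-0.22). No gene of the branch differed by 1.5-fold. Of further lipid synthesis genes, 16 of 22 were lower with PA (median -0.18), against 51.3% of all genes. In the other pair 17 of 22 were (median -0.17), against 52.4%. G6pdx, which supplies NADPH, was lower in both pairs (-0.35 and -0.35), while Elovl3 was higher by 1.47 and 0.43 at low levels of 2.84 to 4.31. Elovl7, an elongase, was lower in the culture with both than with PA (-0.85).

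Genes that respond to a sterol load or handle oxysterols gave no common direction without the medium. There 6 of 11 were lower and 5 higher with PA (median -0.01), against 51.3% of all genes lower. With PA in ADSC medium 4 were lower and 7 higher, against 52.4% of all genes lower. The median there was 0.35, beside -0.02 over all genes. Soat2, which esterifies cholesterol, was higher with PA by 1.62 and 1.77 at levels of 2.98 to 5.14. Abcg1, a cholesterol exporter, measured 7.76 in control, 6.91 with PA, 8.55 with ADSC medium and 9.41 with both. It was thus lower with PA without the medium (-0.85) and higher with it (0.86). Abca1, the related exporter, measured 6.81 in control, 6.49 with PA, 7.60 with ADSC medium and 6.67 with both, so it was highest with the medium alone. Ch25h, which makes an oxysterol that blocks SREBP processing, had PA differences of -0.01 without and 0.72 with ADSC medium. Cyp7b1, which removes oxysterols, was lower with both than with PA (-0.85).

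The authors' deposited tables name the probes they found higher with PA than in control (1580 probes) and higher with PA than with PA and ADSC medium (920 probes). None of the members' 70 probes was in either. The lists are a small part of the 41146 probes analysed and hold only probes that were higher with PA. The absence of so few member probes therefore says little about them.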

How the data were processed

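Total RNA labelled with Cy3 was hybridized to 4 Agilent mouse arrays and read with Agilent Feature Extraction 12.1.1.1, per the file headers. The deposited values are processed intensities: the authors' software subtracted background within each array, per the file headers, with no normalization between arrays. Quantile normalization was part of the authors' work, per the series' design notes. The 2 deposited lists hold probe names without values or a stated threshold.

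Control spots and spots with outlier flags (82 to 104 an array) were left out. Intensities were taken to log2, averaged per probe (41146 probes) and quantile-normalized with limma 3.58.1 in R 4.3.3. Symbols came from RefSeq for 28680 probes, which renamed 635. Each gene took its brightest probe. A gene entered a comparison when well above background on either array (on over 50% of its spots); a dim value was replaced by the lowest level well above background, and a gene whose direction this turned was dropped. The normalization was tested on simulated data. Later steps used Python 3.11.15, numpy 2.4.6, pandas 2.3.3 and matplotlib 3.10.9.

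With 1 array per condition no test was run (an additive fit would leave 1 residual degree of freedom) and the number of arrays limits precision. The threshold was 1.5-fold (0.585 on the log2 scale). Alternatives were 75th percentile scaling, normexp background (offset 50), the mean of detected probes, no filter on dim probes, and a filter on all arrays. Members, lists and rules were chosen with earlier results of these data known. Every member is named. All 4 values are given for Mvk, Acat2 and Idi1, the lowest in PA against control, and for Fads1 and Fads2, which were higher there. They are also given for the regulators, the entry enzymes and genes whose probes disagree in sign by over 0.3. Elovl6, Abcg1 and Abca1 were added after their values were seen. Of the other lists, genes past 1.5-fold and the extremes are named. Likeness was Pearson's r over the 4 arrays among 2226 genes with an SD of at least 0.3; one of the genes this rule names is not reported here.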

Additional observations from a re-analysis of the deposited data

How the results depend on the processing

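No replicate block was fitted, since the labels give no replicate numbers and each condition has 1 array. For 4 counts or medians over the 36 members in each of 5 comparisons, a count within 1.5 times and a median within 0.061 (1 spot SD) of the value reported were taken as unmoved. By that measure 20 of 20 were unmoved under the normexp background, without a filter on dim probes, and with only genes well above background on all arrays. With 75th percentile scaling, 19 of 20 were; the median of PA against control was -0.38 rather than -0.31, where the median of all genes was -0.04 rather than -0.01. With the mean of detected probes, 18 of 20 were: 7 rather than 4 members were at least 1.5-fold lower with PA, and 1 rather than 0 in PA and ADSC medium against control. Within the tolerance, the 8 members at least 1.5-fold lower with PA in ADSC medium were 7 with each of normexp, 75th percentile scaling and averaged probes, and the 6 lower in both treatments against PA were 4. The cause was not tested. In every setting 34 members were lower in PA against control and 35 in PA and ADSC medium against ADSC medium. Single members and step medians moved by over 1 spot SD in 24 of 200 cases with 75th percentile scaling, 6 with normexp and 41 with averaged probes. No gene past 1.5-fold turned direction; Insig2 in both treatments against control went from 0.05 to -0.02 with the mean of detected probes. The lack of replicate cultures limits all values, since the spot SD holds none of the variation between cultures.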

Other observations

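Genes outside the list whose 4 values were most like the mean of the members were sought among the 2226 genes that were well above background on all arrays and varied with an SD of at least 0.3. Among the closest was Gm4788, a predicted gene, at 4.42 in control, 2.31 with PA, 5.81 with ADSC medium and 3.33 with both (r = 0.9999 over the 4 arrays). It had the members' order with larger differences. Gm10941 (r = 0.9998), Cd1d1, which presents lipid antigens (8.28, 7.66, 8.74 and 7.94 in the same order; r = 0.9994), and Ly6g6d (r = 0.9992) were also among them. With 4 arrays and 2226 genes, high values of r are easily reached, and these are given as a description.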
